A study of Homo sapiens with 6 samples.

Results

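The platelet-derived growth factor (PDGF) genes described here are the receptor genes PDGFRA and PDGFRB and the ligand genes PDGFA, PDGFB, PDGFC and PDGFD. They were taken by gene symbol, with 1 probe set each, and all 6 were measured among 18404 genes. Total RNA from cultures of H69M and of H69, with 3 arrays of each line, was measured on Affymetrix whole-transcript arrays. Both are human small cell lung cancer (SCLC) cell lines. H69 is an established neuroendocrine line that grows as floating aggregates, and no label gives the origin of H69M or says whether it is 1 clone. No treatment, genotype change or time point is given for either line. Values are on the log2 scale, as deposited, so a difference of 1 is a 2-fold difference. Whether the 3 arrays of a line came from separate cultures is not stated, and the p-values reflect only the array-to-array spread, which may be technical.

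PDGFs are secreted dimers that bind and pair receptor tyrosine kinases at the cell surface, which then phosphorylate each other and recruit adaptor proteins, phosphoinositide 3-kinase and phospholipase C gamma. PDGF-A and PDGF-C act mainly through the alpha receptor, PDGF-D mainly through the beta receptor, and PDGF-B binds both. In normal lung the ligands are made by epithelium, endothelium and platelets, among other cells, and the receptors belong to fibroblasts, smooth muscle and pericytes, so the pathway usually runs between cell types.

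H69M had higher values than H69 for all 6 genes. The receptor gene PDGFRB was 8.90-fold higher and the ligand gene PDGFA 7.28-fold higher, PDGFC was 3.71-fold and PDGFRA 2.98-fold higher, and PDGFD and PDGFB rose least, by 1.63-fold and 1.46-fold. In limma with Benjamini-Hochberg adjustment over all 18404 genes, the rise passed the threshold of 0.05 for 6 of 6 genes, against 21.0% of all genes called higher and 23.2% called lower. At least 2-fold rises were called for 4 of the 6, against 5.56% of all genes. The H69M arrays lay above every H69 array for 6 of 6 genes, against 25.8% of all genes. The median log2 fold change of the 6 was 1.73, and that of all genes was -0.041. The 6 genes were chosen with earlier results of these data known, so these counts are a description of the chosen genes.

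**Figure D1:**
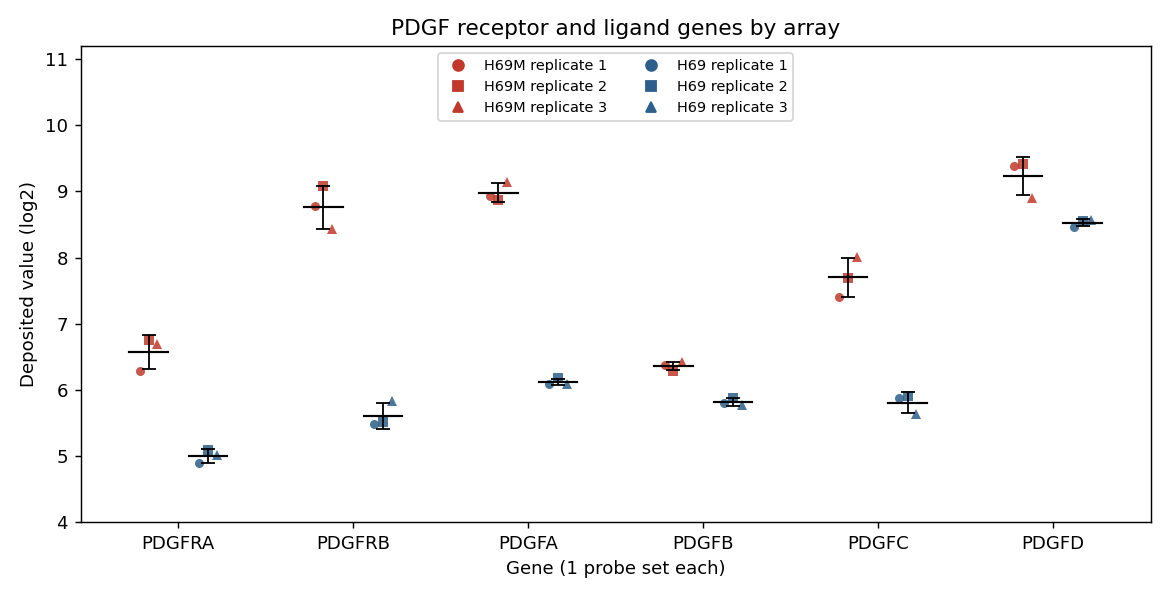
Deposited log2 value (y axis) of the 6 PDGF genes (x axis) on each array, with H69M left of H69; symbols mark the replicates, horizontal lines the means and error bars the SD (n = 3 each). For each of the 6 genes the 3 H69M arrays lie above the 3 H69 arrays, with the widest gap for PDGFA and the narrowest for PDGFD; levels of different genes come from different probe sets and cannot be compared.

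The stretches around annotated starts are shown for the genes with the largest rises, PDGFRB and PDGFA, and for the other receptor gene, PDGFRA. They come from RefSeq (GRCh38.p14), each from 250 bases before an annotated start to 50 bases after it, written 5′ to 3′ on the strand of the gene. RefSeq starts were matched for 4 of the 6 genes, with 1 for PDGFRB, 2 for PDGFRA, 4 for PDGFA and 1 for PDGFD. No sequence is shown for PDGFB and PDGFC. Capitals mark CCAAT boxes (CCAAT) and GC boxes (GGGCGG), on either strand. PDGFRB lies at chr5:150155796-150156095 on the minus strand, the start of PDGFRA listed as 2 at chr4:54233710-54234009 on the plus strand, and the start of PDGFA listed as 2 at chr7:519797-520096 on the minus strand.
PDGFRB: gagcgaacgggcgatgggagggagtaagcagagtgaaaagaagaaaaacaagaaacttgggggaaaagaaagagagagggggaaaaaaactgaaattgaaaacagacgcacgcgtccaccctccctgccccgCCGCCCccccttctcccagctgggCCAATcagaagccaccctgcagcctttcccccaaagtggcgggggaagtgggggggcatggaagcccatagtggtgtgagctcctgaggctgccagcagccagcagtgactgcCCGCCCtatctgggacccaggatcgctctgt
PDGFRA start 2: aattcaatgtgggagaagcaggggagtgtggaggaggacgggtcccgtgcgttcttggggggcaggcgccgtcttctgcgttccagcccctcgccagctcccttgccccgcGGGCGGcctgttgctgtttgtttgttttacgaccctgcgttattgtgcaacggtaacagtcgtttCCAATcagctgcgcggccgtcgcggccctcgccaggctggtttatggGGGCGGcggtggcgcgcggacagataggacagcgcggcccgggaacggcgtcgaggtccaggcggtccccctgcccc
PDGFA start 2: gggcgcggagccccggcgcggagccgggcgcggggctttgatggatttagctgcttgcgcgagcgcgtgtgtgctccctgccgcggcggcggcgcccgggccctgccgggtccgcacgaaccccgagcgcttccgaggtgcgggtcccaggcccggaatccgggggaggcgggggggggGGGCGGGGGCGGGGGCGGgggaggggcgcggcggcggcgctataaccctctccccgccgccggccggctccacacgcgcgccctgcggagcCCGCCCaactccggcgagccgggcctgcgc

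The PDGFRB stretch held 1 CCAAT box, from -94 to -90 relative to the start, and 2 GC boxes. The PDGFRA start listed as 2 also held 1 CCAAT box, from -74 to -70, with 2 GC boxes. The other PDGFRA start, at chr4:54229043-54229342, held neither motif and had 8 CpG pairs, against 32 at the start shown. The PDGFA start shown held 4 GC boxes and no CCAAT box, and 3 of the 4 stand side by side between -71 and -54 without sharing a base. Its content of G and C was 81.7%, higher than in 98.6% of all 35116 promoter stretches of the same length. Over the 8 starts of the 4 genes, a CCAAT box was found at 3, against 34.6% of all stretches, and a GC box at 7, against 45.0%.

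A further 6 motifs were searched on both strands. They were the TATA box TATAAA, the site TGACTCA of AP-1 factors, the E-box CACGTG of MYC, the TEAD site GGAATG, the E-box CACCTG of ZEB and SNAI factors, and the CArG box of serum response factor. The ZEB and SNAI E-box was found at 3 of the 8 starts, all of PDGFA, against 20.6% of all stretches. A CArG box was found at 1 start of PDGFA, from -120 to -111 at the start listed as 1, against 1.29% of all stretches. The TATA box, the AP-1 site, the MYC E-box and the TEAD site were each at 0 of the 8 starts. Of all stretches, 11.5% held the TATA box, 4.95% the AP-1 site, 7.26% the MYC E-box and 14% the TEAD site. These are matches of letters within these windows, and binding was not measured.

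PDGFRB encodes the beta receptor, the one that marks pericytes and many fibroblasts. Its probe set (8115099) read 8.78, 9.08 and 8.43 on the H69M arrays (log2), against 5.48, 5.51 and 5.84 on the H69 arrays. All H69M arrays were high, with replicate 3 lowest, and the lowest H69M value stood 2.59 above the highest H69 value. The means were 8.76 ± 0.33 in H69M and 5.61 ± 0.20 in H69 (SD, n = 3 each), a log2 fold change of 3.15 ± 0.17 (SE; limma, Benjamini-Hochberg adjusted p = 3.72e-06). The fold was 8.90, with a 95% interval of 6.81 to 11.6. Of all genes, 0.88% had a larger rise.

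PDGFRA encodes the alpha receptor, which in the developing mouse lung marks mesenchymal cells and alveolar myofibroblast precursors. Its probe set (8095080) read 6.28, 6.76 and 6.69 in H69M (log2), against 4.89, 5.09 and 5.01 in H69. The groups did not overlap, and H69M replicate 1 was the lowest of its group. The means were 6.58 ± 0.26 in H69M and 4.999 ± 0.10 in H69 (SD, n = 3 each), a log2 fold change of 1.58 ± 0.13 (SE; limma, Benjamini-Hochberg adjusted p = 3.27e-05). The fold was 2.98 (95% interval 2.44 to 3.66). The mean of PDGFRA over the 6 arrays was below the median of all genes, and RMA values can understate folds against dim genes.

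The log2 fold changes of the 2 receptor genes were unequal on these probe sets. PDGFRA was the dimmer gene, and whether an understated fold adds to the gap was not tested. The log2 difference PDGFRB minus PDGFRA within an array was 2.50, 2.33 and 1.74 in H69M, against 0.59, 0.42 and 0.83 in H69. Every H69M array lay above every H69 array, and the means differed by 1.58. An exact two-sided permutation test gave p = 0.10, the smallest that 3 arrays against 3 allow, and adjustment over the 3 pairs of genes compared left it at 0.10. This permutation test therefore cannot pass the threshold with 3 arrays a group, and the 95% intervals of the 2 log2 fold changes, 2.77 to 3.54 for PDGFRB and 1.28 to 1.87 for PDGFRA, do not meet.

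PDGFA encodes a classic short ligand chain that is cut inside the cell before secretion. Its probe set (8137670) read 8.93, 8.88 and 9.14 in H69M (log2), against 6.09, 6.18 and 6.09 in H69. The 2 lines stood 2.70 apart at their nearest arrays, the widest gap of the 6 genes. The means were 8.98 ± 0.14 in H69M and 6.12 ± 0.051 in H69 (SD, n = 3 each), a log2 fold change of 2.86 ± 0.081 (SE; limma, Benjamini-Hochberg adjusted p = 2.04e-07), with a 95% interval of 6.39-fold to 8.28-fold.

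PDGFB, the other classic chain and the cellular counterpart of a viral oncogene, changed much less. Its probe set (8076195) read 6.38, 6.29 and 6.42 in H69M (log2), against 5.80, 5.88 and 5.78 in H69. The arrays of both lines were tight and did not overlap. The means were 6.36 ± 0.066 in H69M and 5.82 ± 0.056 in H69 (SD, n = 3 each), a log2 fold change of 0.54 ± 0.063 (SE; limma, Benjamini-Hochberg adjusted p = 0.000248). PDGFB had the smallest change of the 6, with a 95% interval of 1.32-fold to 1.61-fold, and 10.1% of all genes rose further. Its mean over the 6 arrays was also below the median of all genes.

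PDGFC encodes a ligand secreted as an inactive form with a CUB domain, which proteases such as tissue plasminogen activator remove. Its probe set (8103399) read 7.40, 7.69 and 8.004 in H69M (log2), against 5.88, 5.91 and 5.63 in H69. H69M replicate 3 was the highest array and H69 replicate 3 the lowest, and the groups did not overlap. The means were 7.70 ± 0.30 in H69M and 5.81 ± 0.16 in H69 (SD, n = 3 each), a log2 fold change of 1.89 ± 0.15 (SE; limma, Benjamini-Hochberg adjusted p = 3.05e-05). The fold was 3.71, with a 95% interval of 2.92 to 4.72, and the mean over the 6 arrays was below the median of all genes.

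PDGFD encodes the other ligand with a CUB domain, which is activated by urokinase and matriptase. Its probe set (7951351) read 9.39, 9.42 and 8.90 in H69M (log2), against 8.47, 8.56 and 8.56 in H69. The groups did not overlap, but H69M replicate 3 stood only 0.34 above the highest H69 array, the narrowest gap of the 6. The means were 9.24 ± 0.29 in H69M and 8.53 ± 0.056 in H69 (SD, n = 3 each), a log2 fold change of 0.71 ± 0.13 (SE; limma, Benjamini-Hochberg adjusted p = 0.00316), or 1.63-fold with a 95% interval of 1.32 to 2.02. Without H69M replicate 3 the log2 fold change was 0.88.

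**Figure D2:**
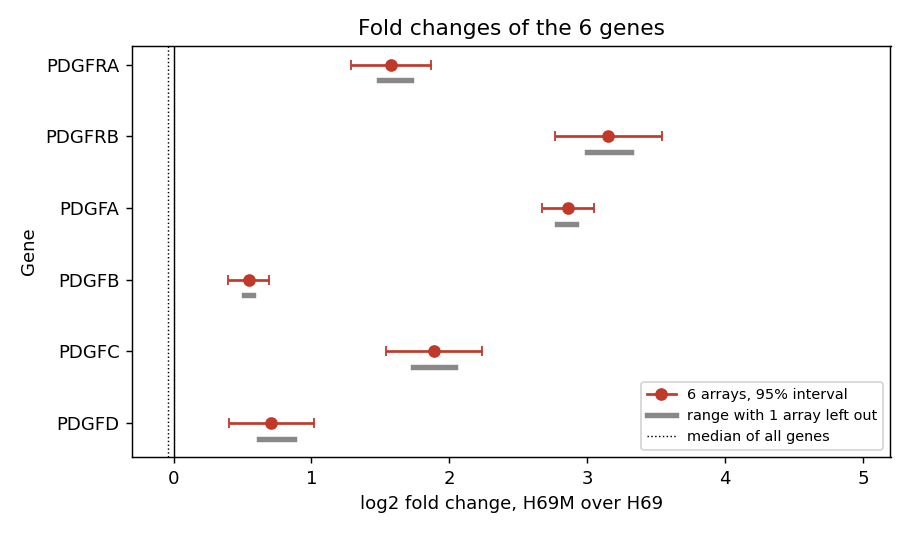
Log2 fold change of H69M over H69 (x axis) for the 6 genes (y axis), with 95% intervals from limma (red, 6 arrays) and the range when 1 array is left out (grey bars below). All 6 intervals lie above 0 and above the median of all genes (-0.041, dotted), with PDGFRB (3.15) and PDGFA (2.86) highest and PDGFB (0.54) and PDGFD (0.71) lowest.

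Within each pair of related ligands 1 gene rose further. PDGFB minus PDGFA within an array was -2.55, -2.59 and -2.72 in H69M, against -0.30, -0.30 and -0.31 in H69 (log2), and the means differed by -2.32. PDGFD minus PDGFC was 1.99, 1.73 and 0.90 in H69M, against 2.58, 2.65 and 2.93 in H69, and the means differed by -1.18. In both pairs the groups did not overlap, so PDGFA rose further than PDGFB and PDGFC further than PDGFD on these arrays. Each exact two-sided permutation p was 0.10, the smallest possible, and 0.10 after adjustment over the 3 pairs. PDGFA and PDGFC, whose ligands act mainly through the alpha receptor, had the larger rises, while the larger receptor rise was in PDGFRB. PDGFB, whose ligand binds both receptors, had the smallest rise of the PDGF genes (0.54, log2). These comparisons set different probe sets side by side. PDGFRA, PDGFB and PDGFC had means below the median of all genes, and how far their folds are understated was not tested.

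The arrays of H69M spread more than those of H69 for the 6 genes. The SD was larger in H69M for 6 of 6 genes, against 57.2% of all genes. It was 5.21 times that of H69 for PDGFD and 1.17 times for PDGFB. H69M replicate 3 was the lowest H69M array for PDGFRB and PDGFD and the highest for PDGFA, PDGFB and PDGFC, so no single H69M array was high or low for all genes. These SDs rest on 3 arrays each, and the difference in spread was not tested.

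Other receptors built like the PDGF receptors were called higher in 2 of 7 genes and lower in 0 of 7, with a median log2 fold change of 0.046. Of all genes, 21.0% were called higher and 23.2% lower, with a median of -0.041, and the count of each list that follows stands against these shares. The 2 of 7 is near the share for all genes. FLT1, a receptor for vascular endothelial growth factor (VEGF), read 7.77, 8.19 and 5.82 in H69M, against 4.27, 4.21 and 4.42 in H69 (log2). Its H69M replicate 3 lay well below the others, and its log2 fold change of 2.96 ± 0.53 (SE; limma, Benjamini-Hochberg adjusted p = 0.00248) was 3.68 without that array. KDR, the main VEGF receptor of endothelium, rose by 0.39. The stem cell factor receptor gene KIT stood at -0.075 and missed the threshold (limma, Benjamini-Hochberg adjusted p = 0.677), but without H69M replicate 1 it was -0.23 and passed, so that 1 gene of the family was lower. CSF1R had 0.046, FLT3 -0.11 and FLT4 -0.14, none past the threshold. PDGFRL, which encodes a receptor-like protein without a kinase, had 0.35 and passed only without H69M replicate 3.

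Of 8 measured genes for the ligands of these related receptors, 4 rose and 0 fell (median 0.34), against 21.0% and 23.2% of all genes. CSF1, the ligand of CSF1R, rose by 2.31 ± 0.079 (log2, SE), VEGFC by 1.37 ± 0.12, VEGFA by 0.60 ± 0.12 and PGF, placental growth factor, by 0.57 ± 0.096. VEGFB, KITLG, FLT3LG and IL34 did not pass.

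Genes for the proteases that mature PDGF chains changed in both directions. Of 7 measured, 4 rose and 3 fell, against 21.0% and 23.2% of all genes, and the median log2 fold change was 0.80. Tissue plasminogen activator, PLAT, which activates PDGF-C, read 8.67, 8.95 and 8.94 in H69M, against 5.59, 5.91 and 5.98 in H69 (log2). It was 8.15-fold higher in H69M (log2 fold change 3.03 ± 0.12, SE; limma, Benjamini-Hochberg adjusted p = 8.83e-07).

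Urokinase, PLAU, an activator of PDGF-D, read 8.51, 8.61 and 8.51 in H69M, against 5.93, 6.29 and 6.35 in H69 (log2), and rose by 2.36 ± 0.11 (SE). Matriptase, ST14, an epithelial protease that also activates PDGF-D, fell, with 8.72, 8.40 and 7.97 in H69M, against 9.71, 9.66 and 9.58 in H69. Its log2 fold change was -1.28 ± 0.17 (SE; limma, Benjamini-Hochberg adjusted p = 0.000455). The 2 activators of PDGF-D thus moved in opposite directions, with no overlap between the lines for either.

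The proprotein convertases, which cut PDGF-A and PDGF-B inside the cell, were also mixed. PCSK5 rose by 1.82 ± 0.14 (log2, SE) and FURIN by 0.80 ± 0.080, while PCSK6 had a log2 fold change of -0.61 ± 0.067. PCSK7 had -0.20, a call lost with the replicate block, with arrays centred on their medians or quantile normalized again, and without H69 replicates 2 or 3 or any H69M replicate.

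Most genes linked to the binding of PDGFs or to their receptors rose. Of 12, 11 rose and 1 fell, against 21.0% and 23.2% of all genes, and the median was 1.86. The scaffold of caveolae CAV1 (8.05) and SPARC (7.75), a matrix protein that binds PDGF-B, led the list in log2 fold change, and both rank among the largest rises of all genes. The matrix protein gene THBS1 rose by 4.54, TGM2, a transglutaminase found in complexes of integrins and PDGF receptors, by 3.23, LRP1, an endocytic receptor that associates with the beta receptor, by 2.66, and the integrin genes ITGB3 by 2.13 and ITGAV by 1.58. The PDGF-binding plasma protein gene A2M had -0.26 (limma, Benjamini-Hochberg adjusted p = 0.0412), and 0 genes of the list were lower without H69 replicates 1 or 3 or H69M replicates 1 or 2, with arrays centred or quantile normalized again, with an eBayes trend, or with genes of low level left out.

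The adaptors and enzymes that dock on activated receptors changed little at the median (0.19): of 20 measured, 10 rose and 3 fell, against 21.0% and 23.2% of all genes. With the replicate block, or without H69 replicates 2 or 3 or H69M replicates 2 or 3, 8 were called higher. The kinase YES1 of the SRC family read 9.99, 10.05 and 10.03 in H69M, against 5.60, 5.74 and 6.04 in H69 (log2), a rise of 4.23 ± 0.11 (SE; limma, Benjamini-Hochberg adjusted p = 1.40e-07). Its relative FYN fell by 0.87 ± 0.055, and SRC itself rose by 0.36. The adaptor genes SHC1 and NCK2 rose by 2.03 ± 0.091 and 1.26 ± 0.066. PIK3R1, the regulatory subunit of phosphoinositide 3-kinase, had a log2 fold change of -0.67, and PLCG1 (0.11) and PTPN11 (-0.12) did not pass.

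Inhibitors of receptor signalling rose or did not pass. Of 13 measured, 9 rose and 0 fell, against 21.0% and 23.2% of all genes, with a median of 0.86. The RAS pathway inhibitors SPRED1 (2.54 ± 0.092, log2, SE), SPRY4 (1.99 ± 0.11) and SPRY2 (1.66 ± 0.094) and the ERK phosphatase DUSP6 (2.01 ± 0.13) had the largest rises. CBL, the ubiquitin ligase that marks activated PDGF receptors for degradation, rose by 0.86, and CBLB (-0.0067) did not pass. SPRY1 (-0.0095) did not pass either.

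Of 17 measured genes known to be induced by PDGF or serum, 10 rose and 2 fell, against 21.0% and 23.2% of all genes, with a median of 0.29. CCL2 (3.80 ± 0.21, log2, SE), CCN1 (3.61 ± 0.19), HBEGF (2.78 ± 0.22) and PTGS2 (2.48 ± 0.14) led the rises. The transcription factor genes MYC (2.11), FOSL1 (1.72) and EGR1 (0.29) also rose, as did F3 (1.68) and IER3 (0.79). IER2 had 0.21, a call lost without H69 replicates 2 or 3 or H69M replicate 2. JUN (0.091), JUNB (-0.10), FOSB (-0.015), EGR3 (0.071) and ATF3 (-0.023) did not pass, and PHLDA1 fell by 0.61. FOS fell by 0.32, a call lost without H69 replicates 1 or 2 or H69M replicate 2, where 1 gene of the list was lower.

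**Figure D3:**
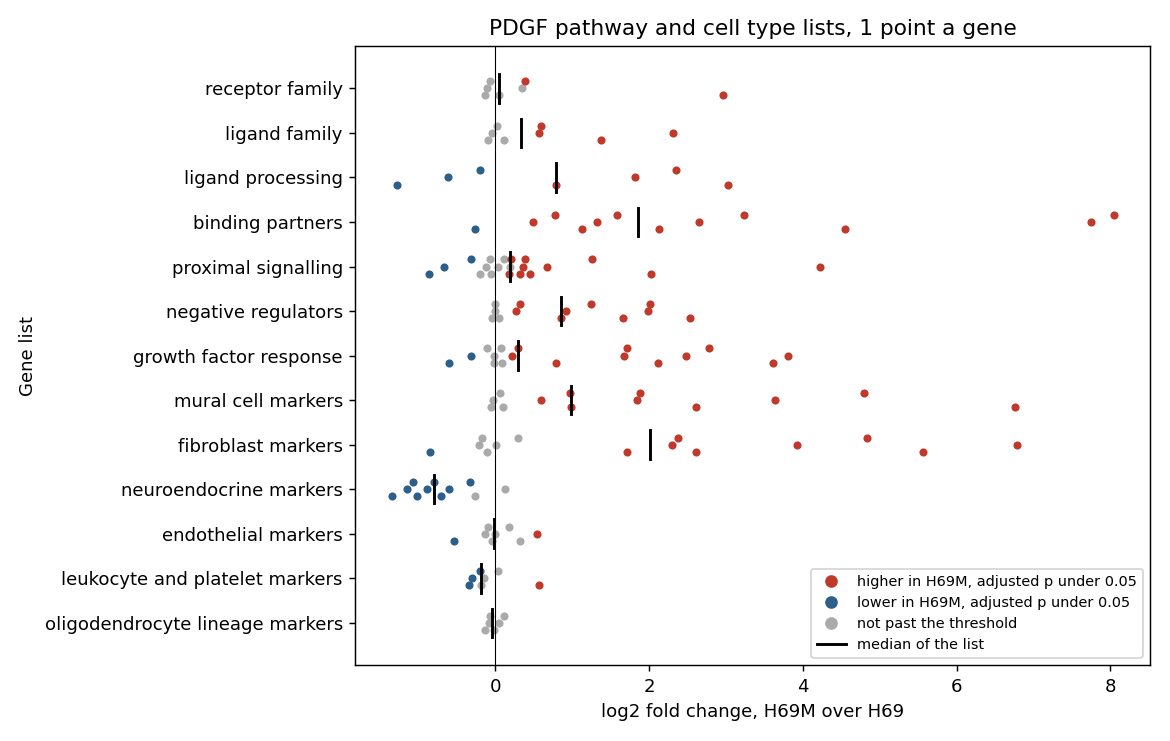
Log2 fold change of H69M over H69 (x axis) for each measured gene of 7 PDGF-related lists and 6 lists of cell type markers (y axis), coloured by the limma call (Benjamini-Hochberg adjusted p under 0.05) with the median of each list as a black bar. The binding partners (median 1.86) and fibroblast markers (2.01) lie mostly to the right, the neuroendocrine markers (-0.80) to the left, and the endothelial and oligodendrocyte lineage markers around 0.

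The rise of the receptor genes went with that of other genes of mesenchymal cells. Of 14 fibroblast markers, 8 rose and 1 fell (median 2.01), against 21.0% and 23.2% of all genes, and the mean log2 level of the list lay between 7.62 and 7.84 on the H69M arrays, against 5.62 to 5.63 on the H69 arrays. LUM rose by 6.78, PRRX1 by 5.57, COL1A1 by 4.83 and FAP by 3.92. FBLN1, with a log2 fold change of -0.85, was the 1 that fell, and DPT, TCF21, PDPN, S100A4 and MEOX2 did not pass. Of 13 mural cell markers, 9 rose and 0 fell (median 0.98), with list means of 7.50 to 7.56 in H69M, against 5.64 to 5.69 in H69. ACTA2 rose by 6.76, TAGLN by 4.79, CNN1 by 3.64 and MCAM by 2.61. The pericyte markers KCNJ8 (1.89), ABCC9 (0.98) and RGS5 (0.60) rose. ABCC9 was dim, with means of 5.04 in H69M and 4.06 in H69, below the 25th percentile of all genes (5.58). The pericyte markers COX4I2 (0.096) and HIGD1B (0.060) and the smooth muscle genes DES (-0.063) and MYH11 (-0.032) did not pass. In bulk RNA, more cells of a type and more RNA per cell cannot be told apart, and the part of other cells in the rise of the PDGF genes was not tested.

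Markers of cells that often supply PDGF to tumours were counted against 21.0% of all genes higher and 23.2% lower (median -0.041). Of 8 endothelial markers 1 rose and 1 fell (median -0.024), with list means of 5.57 to 5.65 in H69M, against 5.53 to 5.66 in H69. ESAM (0.55) rose and CLDN5 (-0.53) fell. Without H69M replicate 3, 3 endothelial markers were called higher. Of 7 leukocyte and platelet markers 1 rose and 3 fell (median -0.19), with list means of 5.25 to 5.31 in H69M, against 5.35 to 5.39 in H69. CD68 (0.57) rose, and PTPRC (-0.35), CD14 (-0.31) and CD3E (-0.20) fell. CD3E lost its call with arrays quantile normalized again, with an eBayes trend, and without H69 replicates 1 or 3 or H69M replicates 2 or 3. PTPRC and CD3E were dim, with means below the 25th percentile of all genes (5.58) in both lines. With genes below the 25th percentile left out, 1 leukocyte and platelet marker was called lower and 0 endothelial markers higher. For the oligodendrocyte lineage, whose precursors carry the alpha receptor, 0 of 6 markers passed in limma at a Benjamini-Hochberg adjusted p of 0.05. At an unadjusted limma p under 0.05 the counts of 0 in all these lists were also 0. By mean over the 6 arrays, 1 of the 8 endothelial markers reached the median of all genes. The same held for 0 of the 7 leukocyte and platelet markers and 0 of the 6 oligodendrocyte lineage markers. Of the 11 measured neuroendocrine markers, 0 rose and 9 fell (median -0.80). NCAM1 (-1.35), CHGB (-1.14), GRP (-1.07), SCG2 (-1.02) and SYP (-0.80) fell, while CHGA (-0.26) passed only without H69M replicate 1. UCHL1 (0.12) was called higher only with an eBayes trend. INSM1 (-0.33) lost its call without H69 replicates 2 or 3 or H69M replicates 2 or 3. The means of all 11 over the 6 arrays reached the median of all genes.

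The nearest measured genes on the chromosome, 5 on each side where there were as many, were compared with the PDGF genes, beside 21.0% of all genes higher and 23.2% lower. PDGFRA lies on chromosome 4 next to KIT and KDR. Of its 10 neighbours 2 were higher and 1 lower, none by 2-fold, and their median log2 fold change was 0.080. PDGFRB lies on chromosome 5 beside CSF1R, and of its 10 neighbours 2 were higher and 1 lower (median 0.015), the largest rise being 0.65 for the sulfatase gene ARSI. PDGFA lies near an end of chromosome 7, and of 6 neighbours 1 was higher and 1 lower (median -0.023). Of the 10 neighbours of PDGFB on chromosome 22, 1 was higher and 2 were lower (median -0.13). Each of these 4 PDGF genes had a larger log2 fold change than any of its neighbours. In size, the fall of SNORD43 near PDGFB (-0.61) was larger than the rise of PDGFB (0.54).

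PDGFC and PDGFD each had at least 1 neighbour that rose further. Around PDGFC on chromosome 4, 5 of 10 were higher and 1 lower (median 0.33). They included GASK1B (3.69), the guanylate cyclase subunit gene GUCY1B1 (1.57), the cathepsin gene CTSO (1.24) and, in the other direction, the glutamate receptor gene GRIA2 (-2.09). Around PDGFD on chromosome 11, 5 of 10 were higher and 1 lower (median 0.34), with MMP3 (4.77), MMP13 (2.45), CASP4 (3.31) and DYNC2H1 (1.30) each rising further than PDGFD itself (0.71). Between these stood genes that did not pass, such as GLRB beside PDGFC (0.29) and CASP12 near PDGFD (-0.16). Some of the called neighbours were dim, with means below the 25th percentile of all genes (5.58) in both lines. They were TDO2, CTSO and RXFP1 near PDGFC, and MMP12 and DDI1 near PDGFD. KDR near PDGFRA and PDE6A near PDGFRB, also called, were dim in the same way.

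**Figure D4:**
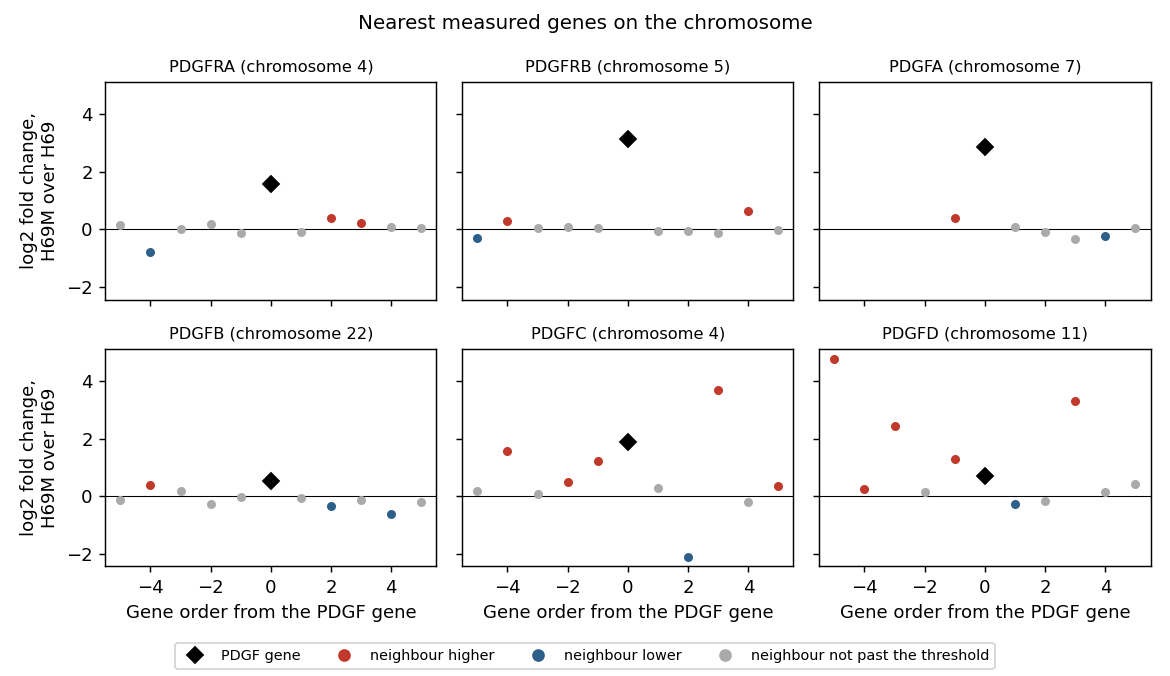
Log2 fold change of H69M over H69 (y axis) for each PDGF gene (black diamond) and up to 5 measured genes on each side, in chromosome order (x axis), coloured by the limma call. PDGFRA, PDGFRB, PDGFA and PDGFB stand above all their neighbours, whereas 1 neighbour of PDGFC and 4 of PDGFD lie higher than the PDGF gene.

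The genes whose values ran most like those of each PDGF gene were sought by Pearson's r over the 6 arrays, among genes whose mean reached the median of all genes. Since the arrays fall into 2 lines, r is high for many genes, and it is given as a description. For PDGFRB the 3 highest were the kinesin gene KIF1C (r = 0.9994), the lysosomal lipase gene LIPA (r = 0.9993) and ENG, the TGF-beta co-receptor endoglin (r = 0.9991). For PDGFRA they were POGLUT2 (r = 0.9996), UBE2A (r = 0.9992) and TES, a focal adhesion protein (r = 0.9991). PDGFA ran with BCAR1, an adaptor of focal adhesions, the actin bundling gene PLS3 and LYRM1. PDGFB ran with the cytokine gene IL32, RUVBL2 and ATP6V1C1, and PDGFC with PHLDA2, PLPP5 and TWSG1. PDGFD was matched less closely: STT3B and METTL23 had r = 0.997 and r = 0.996, ID3 had r = 0.992, and 6 genes had r above 0.99, against 475 for PDGFA and 178 for PDGFRB.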

How the data were processed

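The authors deposited 1 table of log2 values per probe set. RMA and limma are named, without versions, per the submitters' processing notes. RMA as usually run corrects background, quantile normalizes and summarises probes by median polish. No source used here gives its software or the genome build. Array medians lay between 6.43 and 6.48. Arrays correlated across genes at 0.995 to 0.998 within a line and 0.938 to 0.950 between lines. RMA values carry no detection call, and the number of arrays limits the precision.

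Of 32321 probe sets, the platform annotation gave 1 symbol to 19158 (18404 genes). Another 1388 had several and 11775 were not listed. Where a gene had more than 1 probe set, the one with the highest mean was used. H69M was compared with H69 with limma 3.58.1 in R 4.3.3 (lmFit, eBayes, two-sided), with Benjamini-Hochberg adjustment over 18404 genes. The code was tested on simulated data. Pairs of genes were compared by exact permutation in scipy 1.17.1. Named genes were the 6 members, up to 4 members of each list past the threshold with the largest change, the 3 genes most like each member, and KIT, KDR, CSF1R, CHGA, SYP and NCAM1. Other list genes and neighbours were named after their values were seen. The members and lists were chosen with earlier results of these data known. RefSeq tables (GRCh38.p14) gave gene order and promoters.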

Additional observations from a re-analysis of the deposited data

Results flagged for a closer look

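Probe set 8115543 was not used above because the platform annotation lists it for both EBF1 and PDGFRB. It read 8.47, 8.52 and 8.35 in H69M, against 6.25, 6.01 and 6.13 in H69 (log2), a difference of 2.31 with no overlap between the lines. It was singled out as a signal, above the H69 level, in data that the comparison leaves out. Which of the genes gives this signal cannot be told apart here.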

How the results depend on the processing

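The 6 PDGF genes kept their direction and their call in all 87 alternative values computed for them. With 1 array left out, the log2 fold changes lay between 3.00 and 3.32 for PDGFRB, 1.49 and 1.73 for PDGFRA, 2.78 and 2.92 for PDGFA, 0.51 and 0.58 for PDGFB, 1.74 and 2.04 for PDGFC, and 0.62 and 0.88 for PDGFD. The highest adjusted p among these was 0.0141 (limma, Benjamini-Hochberg), for PDGFD without H69 replicate 1. The pair differences lay between 1.42 and 1.80 for the receptors, -2.35 and -2.27 for PDGFB minus PDGFA, and -1.41 and -0.86 for PDGFD minus PDGFC.

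PDGFRA, PDGFB and PDGFC have no value with genes below the median left out, a filter that cut the 2-fold counts over all genes to 483 higher and 323 lower because fewer genes were tested. No other alternative moved a count over all genes by more than 1.5 times. The replicate number as a block gave 3617 genes higher and 4021 lower, against 3866 and 4274 without it, and left the log2 fold changes of the 6 genes as they were, with PDGFRB at 3.15 (limma, Benjamini-Hochberg adjusted p = 3.63e-05). Arrays that share only a number did not deviate together (r across genes of 0.021, 0.0072 and 0.0099), so the numbers were not taken as pairs. Of 26 counts for the lists, 10 moved by more than 1.5 times with genes below the median left out, 4 with genes below the 25th percentile left out, and at most 2 under any other alternative.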
